A study of Mus musculus with 10 samples.

Results

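The genes of the major histocompatibility complex (MHC) and of peptide loading were followed in oesophageal tissue of mice given 4-NQO, a chemical carcinogen used to raise tumours of the oral cavity and oesophagus. The members were all rows of the protein-coding count table whose symbol starts with H2-, the mouse name of the MHC, together with B2m, Tap1, Tap2, Tapbp, Cd74, Ciita, Nlrc5, Psmb8 and Psmb9. They came to 44 of 22740 rows. By symbol, 24 were class I heavy chains, 9 were class II chains, 9 were the named partners and regulators, and 2 carried an H2- symbol without being MHC chains.

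The series compared 5 mice labelled Grhl3 knockout (Grhl3 KO) with 5 wild-type mice, all of strain C57BL/6 and all treated with 4-NQO, by poly(A) RNA sequencing of 10 libraries. Grhl3 is a grainyhead-like transcription factor of stratified epithelia, and the title calls the knockout conditional. The knockout columns carry the tag L2Cre; its meaning, the Cre driver and the ages are not stated in these sources. Knockout samples are labelled as oesophageal tumour tissue and wild-type samples as oesophageal tissue, while the design text speaks of tumours from both, so genotype and the kind of tissue taken cannot be told apart. Libraries are named here by genotype and sample number.

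MHC class I molecules consist of a heavy chain and beta-2 microglobulin, the product of B2m, and show peptides from inside the cell to CD8 T cells and NK cells. Their peptides are cut by proteasomes that can carry the subunits Psmb8 and Psmb9, moved into the endoplasmic reticulum by the transporter Tap1 and Tap2, and loaded with the help of tapasin (Tapbp). MHC class II molecules pair an alpha and a beta chain, travel with the invariant chain Cd74, exchange it for peptide with the help of H2-DM, and are found mainly on dendritic cells, B cells and macrophages. Nlrc5 is the transactivator of class I genes and Ciita that of class II genes, and interferon gamma induces both. In the oesophagus the classical class I genes are active in most cells, while class II is typical of Langerhans and other dendritic cells among the keratinocytes.

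Total counts ran from 15315418 to 32884323 per library, and members took 0.258% to 0.555% of them. Grhl3, the targeted gene, ran from 135.0 to 316.7 CPM (counts scaled to a common library size) among the knockout libraries and from 109.4 to 363.4 CPM among the wild-type ones, so its count does not separate the labels. The sum of 4 Y-linked genes was 161.6 to 202.7 CPM in the knockout libraries, 154.3 and 177.2 CPM in wild type 1028 and 1048, 72.3 CPM in wild type 1561, and 0.0527 and 0.0539 CPM in wild type 1528 and 1555. All 5 knockout samples and wild type 1028 and 1048 have sample numbers below 1100, and the other 3 wild-type samples, 1528, 1555 and 1561, have numbers above it. The sources do not say what these numbers stand for. Keratins of the oesophageal epithelium were abundant throughout. The basal keratin Krt14 ran from 13160 to 20530 CPM over all 10 libraries, and Krt13, of the layers above, from 8366 to 20770 CPM among the knockout libraries and from 4958 in wild type 1561 to 43060 CPM in wild type 1028.

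The 35 H2- members lie on chromosome 17 between 33.94 and 37.48 Mb of GRCm38. RefSeq promoter windows (GRCm38.p6, 250 bases before to 50 after each gene's start) matched 36 of the 44 members. In class II genes an X box and a Y box lie at a set distance and are bound by the factors that recruit Ciita. A search on the gene's strand looked for GCAAC, as a core of the X box, followed 10 to 40 bases downstream by TGATTGG, the Y box. It found the pair in 5 of 8 class II promoters and in 0 of 22 class I promoters, against 0.152% of 32851 promoters. The gap was 26 bases in H2-Aa and H2-Oa, 25 in H2-Eb1 and H2-Eb2, and 23 in H2-Ob. For the class II genes H2-Aa, H2-Eb1 and H2-Ob, the 170 bases before the start are shown, 5′ to 3′ on the gene's strand, with both elements in capitals.
H2-Aa (chr17:34287824-34287993, minus strand): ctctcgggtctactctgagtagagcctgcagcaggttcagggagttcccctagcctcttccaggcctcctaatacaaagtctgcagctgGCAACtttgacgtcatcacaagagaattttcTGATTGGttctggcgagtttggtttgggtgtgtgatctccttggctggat
H2-Eb1 (chr17:34305697-34305866, plus strand): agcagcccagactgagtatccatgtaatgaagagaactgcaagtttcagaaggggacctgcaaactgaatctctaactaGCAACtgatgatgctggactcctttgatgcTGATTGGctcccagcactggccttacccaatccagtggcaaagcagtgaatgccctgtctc
H2-Ob (chr17:34238735-34238904, plus strand): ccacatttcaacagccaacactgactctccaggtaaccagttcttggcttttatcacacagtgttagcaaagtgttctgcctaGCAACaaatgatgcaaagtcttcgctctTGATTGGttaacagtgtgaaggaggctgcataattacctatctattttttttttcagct
The 3 stretches share the order and near spacing of the capitals.

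Single elements were then searched for on both strands. The pair search took exact letters on the gene's strand only, so its 0 of 22 does not show that class I lacks related elements. TTTCACTT, a form of the interferon-stimulated response element, was found in 9 of 22 class I windows and 0 of 8 class II windows, against 1.60% of all promoters. TGATTGG alone was found in 15 of 22 class I and 7 of 8 class II windows (7.82% of all promoters), and TGACG in 11 of 22 and 1 of 8 (20.8%). The 170 bases before the start of 3 class I heavy chains and of B2m are shown with TTTCACTT, TGACG and TGATTGG in capitals, the last printed as its reverse complement CCAATCA where it lies on the other strand.
H2-K1 (chr17:34000348-34000517, minus strand): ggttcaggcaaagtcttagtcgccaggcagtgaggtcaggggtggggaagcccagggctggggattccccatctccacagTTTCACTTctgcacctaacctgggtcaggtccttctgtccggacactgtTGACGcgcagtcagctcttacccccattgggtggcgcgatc
H2-D1 (chr17:35262924-35263093, plus strand): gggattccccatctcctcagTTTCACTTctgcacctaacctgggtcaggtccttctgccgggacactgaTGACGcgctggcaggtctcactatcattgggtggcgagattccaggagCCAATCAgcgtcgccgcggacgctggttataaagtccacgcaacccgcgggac
H2-Q4 (chr17:35379447-35379616, plus strand): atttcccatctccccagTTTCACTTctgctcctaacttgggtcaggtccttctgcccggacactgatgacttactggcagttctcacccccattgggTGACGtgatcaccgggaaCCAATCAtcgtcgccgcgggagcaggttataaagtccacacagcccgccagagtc
B2m (chr2:122147517-122147686, plus strand): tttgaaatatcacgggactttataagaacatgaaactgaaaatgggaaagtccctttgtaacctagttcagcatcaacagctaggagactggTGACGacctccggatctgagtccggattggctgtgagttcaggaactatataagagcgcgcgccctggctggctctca
H2-K1, H2-D1 and H2-Q4 each hold TTTCACTT upstream of a TGACG, while the stretch before B2m holds TGACG alone. Tap1 and Psmb9 are neighbours read away from each other, and the 225 bases between their RefSeq starts serve as promoter of both. They are shown on the strand of Tap1, with the same capitals.
Tap1 and Psmb9 (chr17:34187331-34187555, plus strand): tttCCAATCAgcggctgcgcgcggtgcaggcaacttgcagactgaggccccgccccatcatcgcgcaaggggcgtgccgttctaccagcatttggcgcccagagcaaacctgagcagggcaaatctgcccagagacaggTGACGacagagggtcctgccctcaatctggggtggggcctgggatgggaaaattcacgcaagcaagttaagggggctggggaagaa
A match in these windows is a description of letters, not a measured binding site.

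Per kb of exon, the class I light chain was the most abundant member. The mean over 10 libraries was 804.5 CPM per kb for B2m, 397 for H2-D1 and 345.7 for H2-K1. The invariant chain Cd74 followed at 84.5, and the class II chains H2-Ab1, H2-Eb1 and H2-Aa stood at 45.6, 39.0 and 23.8 CPM per kb. The non-classical class I gene H2-T23, whose product Qa-1 is a ligand of NK cell receptors, stood at 32.0, tapasin at 35.3, Tap1 at 9.84 and Tap2 at 9.66 CPM per kb. Both transactivators were low, at 6.68 CPM per kb for Nlrc5 and 0.438 for Ciita. Levels of neighbours in this order overlapped across libraries, for example H2-D1 and H2-K1, while every library held B2m above Cd74.

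**Figure D1:**
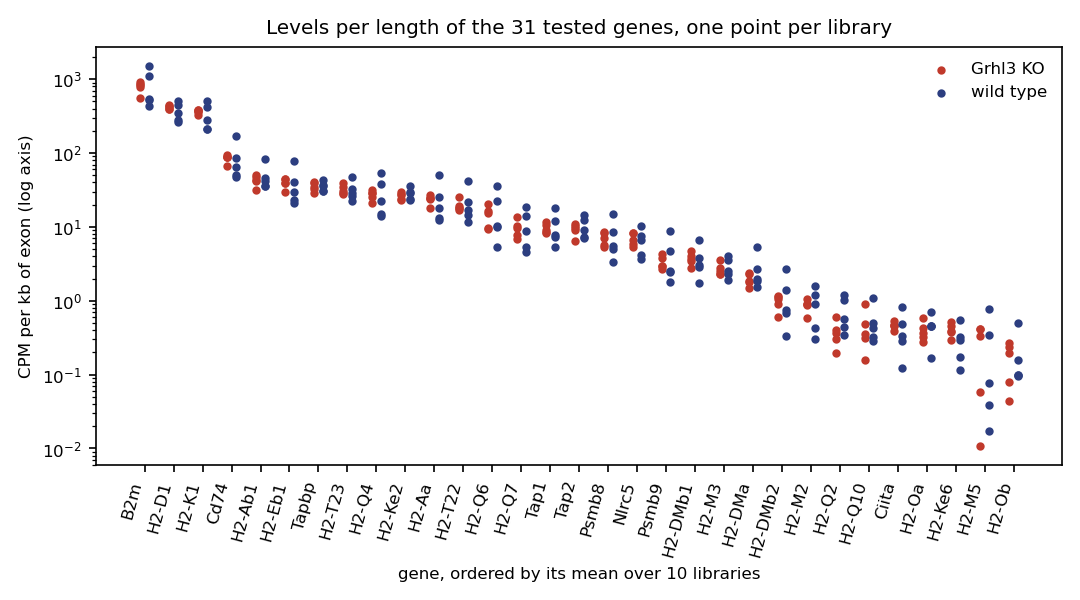
Level of each of the 31 tested members in CPM per kb of exon (log axis), ordered by the mean over 10 libraries, with 1 point per library for Grhl3 KO (red) and wild type (blue). B2m, H2-D1 and H2-K1 lie above the other genes in all libraries, and the wild-type points of most genes spread more widely than the knockout points. Values of 0 would not show on the log axis, and no tested member had one.

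Of the 44 members, 31 passed the filter on low counts, among 13731 genes tested. Those left out were the class II beta chain H2-Eb2 (56 counts in all libraries together), H2-T24 (173 counts), H2-M9 (25 counts), H2-T3, H2-Q1 and H2-M1 (3 counts each), H2-M10.5 (1 count), and 6 genes with no count in any library, H2-M10.1, H2-M10.2, H2-M10.3, H2-M10.4, H2-M10.6 and H2-M11. Members of the H2-M10 family are known from pheromone-sensing neurons of the vomeronasal organ.

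Neither class I, class II nor the loading genes passed the test between Grhl3 KO and wild type. edgeR called 0 of 31 tested members at an adjusted p under 0.05, where 0.0801% of all genes were called (0.0291% higher and 0.051% lower in Grhl3 KO), and the smallest adjusted p of a member was 0.697. DESeq2 also called 0 members. The unadjusted edgeR p was under 0.05 for 1 member, H2-Q2, and for 7.16% of all genes. In 0 of 31 members did the 5 knockout libraries lie entirely apart from the 5 wild-type libraries, against 1.35% of all genes. Of the log2 fold changes, 22 were below 0 and 9 above, with a median of −0.08, while over all genes 49.7% were above 0 and the median was −0.0011. With limma voom 12 members were below 0 and 19 above, so the split itself turned with the method.

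The classical class I heavy chains are H2-K1 and H2-D1, the molecules that present peptides to CD8 T cells. H2-K1 stood at 1075, 1134, 1118, 1048 and 971.3 CPM in Grhl3 KO 1026, 1027, 1035, 1036 and 1043, and at 1509, 1233, 621.6, 822.9 and 623.1 CPM in wild type 1028, 1048, 1528, 1555 and 1561. The knockout libraries lay close together in the middle of the wild-type range, with 2 wild-type libraries above all of them and 3 below. The log2 fold change was 0.15 with an SE of 0.24 (edgeR adjusted p = 0.948). H2-D1 gave a similar picture, at 1032, 1091, 1136, 1167 and 1004 CPM in the knockout libraries and 1328, 1166, 689.3, 895.3 and 729.4 CPM in wild type, in the same order. Wild type 1028 lay above all knockout libraries, wild type 1048 level with the highest of them, and the other 3 below. Its log2 fold change was 0.18 with an SE of 0.18 (edgeR adjusted p = 0.905). The H2-D1 transcript shares stretches of at least 75 bases at 95% identity or more with 11 other genes, over 24.3% of its length. Of these, H2-Q7 (13.3%) and H2-Q10 (3.62%) carry H2- symbols and the rest do not. Of the H2-T22 transcript, 15.7% matched H2-D1 as well. Part of the count of H2-D1 may thus belong to other genes. For H2-K1 such a stretch was found from the transcript of H2-T22, 11.7% of which matched it, and from that of H2-Q1 (14.1%).

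B2m, without which class I heavy chains do not reach the cell surface, stood at 712.8, 730.9, 786.0, 670.0 and 481.6 CPM in the knockout libraries and at 1299, 938.7, 468.7, 452.1 and 378.2 CPM in wild type. The 3 wild-type libraries of the higher number series were below every knockout library and the other wild-type libraries above every one. The log2 fold change over all 10 libraries was −0.06 with an SE of 0.33 (edgeR adjusted p = 0.987). The same arrangement, wild type 1528, 1555 and 1561 all below wild type 1028 and 1048, was seen in 16 of 31 tested members, against 9.03% of all genes. It held for 15 of 19 members on the class I side and for 1 of 10 on the class II side. This difference between the sides was not tested.

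Of the 22 class Ib genes, 10 were tested, and 9 of these were below 0 and 1 above. The most abundant were H2-T23, H2-Q4, H2-T22, H2-Q7 and H2-Q6, all with close relatives in the same gene cluster. H2-T23 was at 93.3 ± 13.7 CPM in the knockout libraries against 91.3 ± 27.0 CPM in the wild-type ones (SD over 5 libraries each), a log2 fold change of 0.03 (SE 0.18). Near-identical stretches cover 100% of the transcript of H2-T22, 86.6% of H2-T23, 78.0% of H2-Q6 and 67.8% of H2-Q7, which leaves their single counts uncertain. H2-Q2 had the largest fold of all members. It stood at 0.881, 1.31, 0.434, 0.788 and 0.657 CPM in the knockout libraries and 2.59, 2.26, 0.949, 1.24 and 0.753 CPM in wild type, so the groups overlapped. Its log2 fold change was −0.93 with an SE of 0.42 (edgeR unadjusted p = 0.0495, adjusted p = 0.697).

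The class II chains were less abundant than class Ia. H2-Aa, the alpha chain of I-A, stood at 101.3, 94.99, 93.86, 67.71 and 91.17 CPM in the knockout libraries and 190.8, 69.14, 46.93, 96.52 and 50.07 CPM in wild type. Wild type 1028 was far above the next library, wild type 1528 and 1561 were the lowest, and the knockout libraries lay between. The log2 fold change was −0.01 with an SE of 0.35 (edgeR adjusted p = 0.996). The beta chain H2-Ab1 stood at 127.9, 121.6, 106.8, 80.59 and 109.3 CPM in the knockout libraries and 215.1, 107.6, 91.39, 119.3 and 91.49 CPM in wild type. Wild type 1028 again stood alone. Its log2 fold change was −0.19 with an SE of 0.23 (edgeR adjusted p = 0.923).

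The invariant chain Cd74, which occupies the class II groove until loading, stood at 156.8, 147.7, 146.7, 113.8 and 149.3 CPM in the knockout libraries and 288.8, 107.4, 80.26, 144.3 and 83.53 CPM in wild type. Wild type 1028 was again the highest and wild type 1528 and 1561 the lowest, with a log2 fold change of 0.02 (SE 0.32; edgeR adjusted p = 0.993). H2-DMa, a chain of the peptide exchange factor H2-DM, stood at 8.18, 8.03, 6.21, 5.12 and 6.39 CPM in the knockout libraries and 18.4, 6.37, 6.86, 9.43 and 5.37 CPM in wild type. This was the lowest log2 fold change of the class II genes, at −0.45 with an SE of 0.32 (edgeR adjusted p = 0.827), and the groups overlapped. The partner chains H2-DMb1 and H2-DMb2 are near-identical to each other over 76.9% and 70.7% of their transcripts, so their split is uncertain. H2-Oa and H2-Ob, which restrain H2-DM and are known from B cells and dendritic cells, reached at most 0.990 and 2.69 CPM in any library.

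The genes for cutting, carrying and loading class I peptides were, like H2-K1 and H2-D1, highest in wild type 1028. Tap1 stood at 46.67, 58.57, 63.0, 49.36 and 45.49 CPM in the knockout libraries and at 99.31, 65.56, 29.0, 39.72 and 42.31 CPM in wild type. Its log2 fold change was −0.07 with an SE of 0.29 (edgeR adjusted p = 0.983). Psmb9, the immunoproteasome subunit read from the same promoter, stood at 14.0, 16.0, 10.8, 11.0 and 9.79 CPM in the knockout libraries and 32.16, 17.27, 6.486, 9.0 and 9.271 CPM in wild type. The order of the wild-type libraries was that of Tap1, and the log2 fold change was −0.27 with an SE of 0.39 (edgeR adjusted p = 0.945). Tapbp was the steadiest member of this set, between 103.2 and 158.4 CPM in all 10 libraries.

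Of the transactivators, Nlrc5 stood at 70.26, 50.57, 70.46, 44.83 and 56.54 CPM in the knockout libraries and 88.79, 63.71, 30.8, 56.0 and 35.44 CPM in wild type (log2 fold change 0.09, SE 0.27; edgeR adjusted p = 0.978). Ciita stood at 4.47, 4.55, 5.12, 3.66 and 4.36 CPM in the knockout libraries and 7.88, 3.21, 1.16, 4.64 and 2.73 CPM in wild type (log2 fold change 0.17, SE 0.40; edgeR adjusted p = 0.967). For both, the highest library was wild type 1028 and the lowest wild type 1528. The other H2- symbols, H2-Ke2 and H2-Ke6, are older names of the prefoldin subunit Pfdn6 and the dehydrogenase Hsd17b8, genes within the MHC region that present no antigen. H2-Ke2 lay between 27.5 and 43.1 CPM in all libraries and did not follow the order of the MHC chains.

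**Figure D2:**
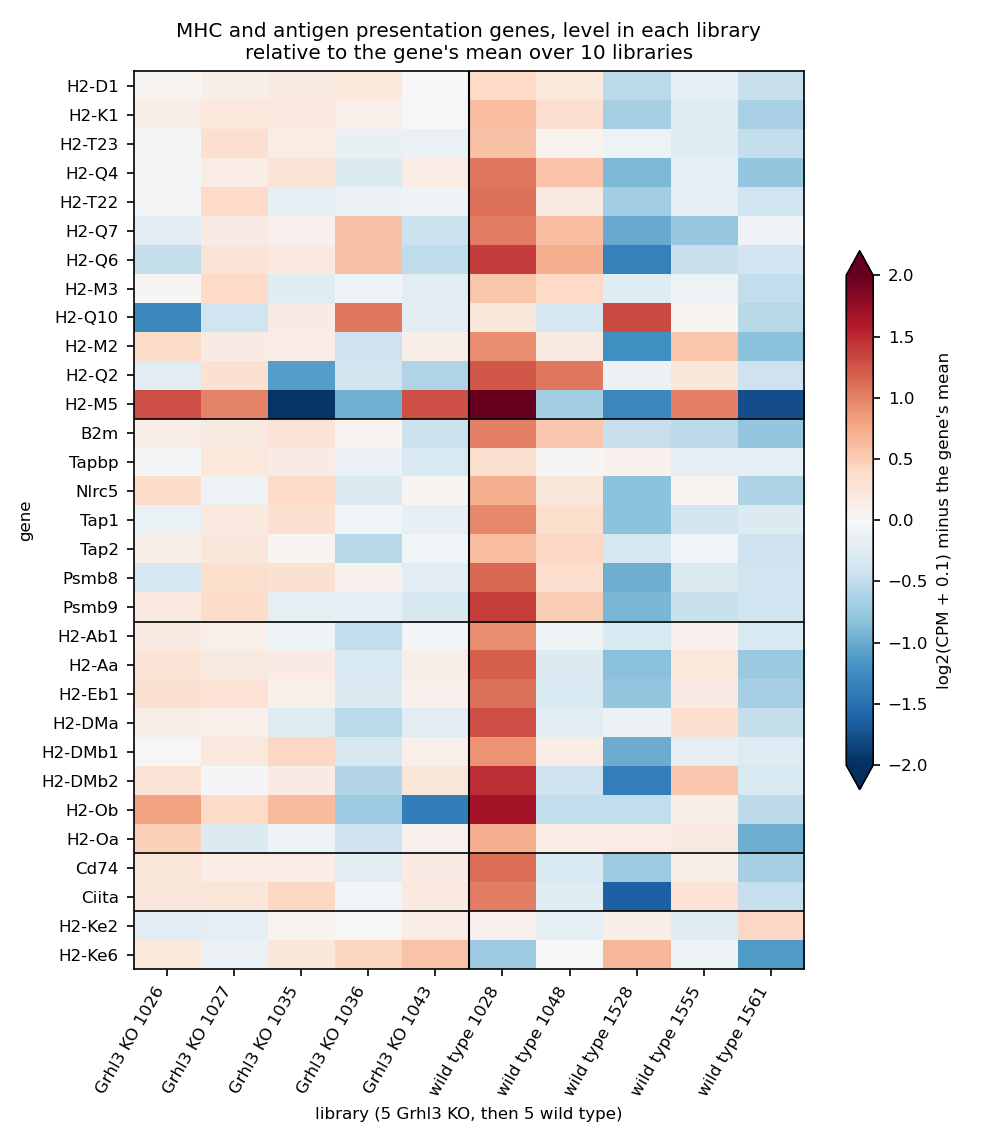
Level of the 31 tested members (rows, in blocks of class I heavy chains, class I partners with Nlrc5, class II chains, Cd74 with Ciita, and the other H2- symbols) in the 10 libraries (columns), as log2(CPM + 0.1) minus the gene's mean, with red above and blue below the mean and values beyond 2 shown at the end of the scale. Wild type 1028 is red and wild type 1528 blue in most rows, and the 5 Grhl3 KO columns are paler.

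Most members varied more among the wild-type libraries than among the knockout libraries. Wild type 1028 was the highest of the 10 libraries in 28 of 31 tested members, against 14.6% of all genes, with 18 of 19 on the class I side and 10 of 10 on the class II side. Wild type 1528 was the lowest in 17 of 31, against 12.8% of all genes. The SD of log2 CPM was larger in wild type than in Grhl3 KO in 29 of 31 members, against 67.0% of all genes. The median SD of the members was 0.73 in wild type and 0.271 in Grhl3 KO, where all genes had medians of 0.279 and 0.216. The wild-type libraries span both number series and include some with almost no Y-linked counts, while all knockout libraries are numbered below 1100. The wild-type SD thus holds any difference between the series, and the knockout SD does not. Whether genotype has a part in the wider spread was not tested. The shares above are descriptions, since the members share libraries and move together.

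Summed over H2-K1 and H2-D1, class Ia stood at 2106, 2225, 2254, 2215 and 1975 CPM in Grhl3 KO 1026, 1027, 1035, 1036 and 1043 and at 2837, 2399, 1311, 1718 and 1353 CPM in wild type 1028, 1048, 1528, 1555 and 1561. The 9 class II chains summed to 335.7, 321.0, 294.8, 218.9 and 291.4 CPM and to 596.4, 249.3, 191.0, 314.0 and 198.6 CPM in the same order. The classes parted in wild type 1048, which was above every knockout library in class Ia and below 4 of the 5 in class II, and in wild type 1555, which was below every knockout library in class Ia and above 3 of them in class II. Class II came to 13.6% ± 2.32 of class Ia in the knockout libraries against 15.8% ± 4.05 in the wild-type ones (SD over 5 each), with overlapping ranges of 9.88% to 15.9% and 10.4% to 21.0%.

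**Figure D3:**
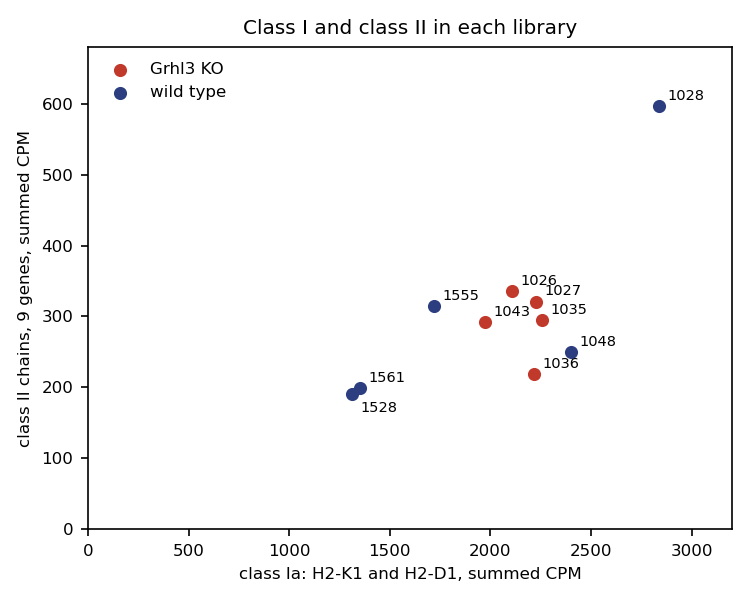
Summed CPM of the class Ia genes H2-K1 and H2-D1 (x axis) against the summed CPM of the 9 class II chains (y axis), 1 point per library, labelled by sample number, for Grhl3 KO (red) and wild type (blue). The knockout points lie within 1975 to 2254 CPM of class Ia, between the wild-type libraries 1028 and 1048 on the right and 1528, 1555 and 1561 on the left.

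The direction of the comparison turned on which of them were used. Against wild type 1028 and 1048 alone, the libraries of the knockout's own number series, 28 of 31 members were lower in Grhl3 KO, with a median log2 fold change of −0.54. In that fit edgeR called 0 members after adjustment (smallest adjusted p = 0.510; 0.00699% of all genes called), and the unadjusted p was under 0.05 for 12 members and for 6.5% of all genes. Without wild type 1028, 27 of 31 members were higher, with a median of 0.26, and edgeR again called 0 (smallest adjusted p = 0.475; 0.0579% of all genes called). H2-K1, for example, had a log2 fold change of −0.36 in the first comparison and Cd74 one of −0.47, while without wild type 1028 Cd74 had 0.45. Without wild type 1528 and 1555, which hold almost no Y-linked counts, 28 of 31 members were again lower in Grhl3 KO, with a median of −0.25 and 0 called by edgeR (smallest adjusted p = 0.877). In 26 of 31 members the knockout mean lay below that of wild type 1028 and 1048 and above that of the higher number series. This order held for 20.3% of all genes, and genes between the means in the reverse order were not counted.

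**Figure D4:**
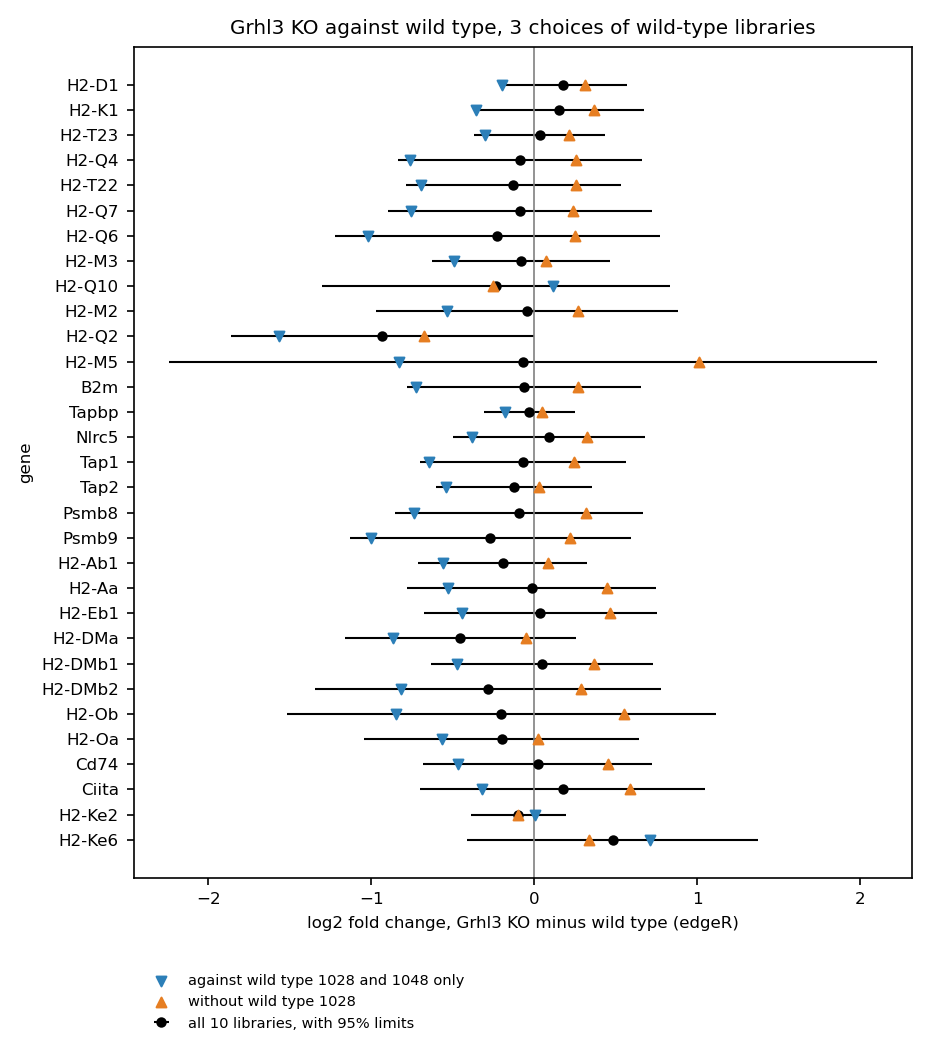
Log2 fold change of each tested member, Grhl3 KO minus wild type, by edgeR, over all 10 libraries (black, with 95% limits), against wild type 1028 and 1048 alone (blue) and without wild type 1028 (orange). The black limits cross 0 in all rows but H2-Q2, where the upper limit lies just below it, and blue and orange points fall on opposite sides of 0 for most genes.

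Across the 10 libraries, the levels of paired members rose and fell together. The pairs were chosen with earlier results of these data known, and no pairs of other genes were set beside them. Wild type 1028 was the highest library in most members, so the p-values do not tell a pathway from this shared order. For 10 chosen gene pairs, Pearson's r of log2 CPM was 0.681 to 0.983, and all 10 had a Benjamini-Hochberg adjusted permutation p under 0.05, while 8 did so by Spearman's rho. Ciita and H2-Aa had r = 0.896 and rho = 0.879 (permutation p = 0.0008, adjusted 0.00164; for rho 0.00181, adjusted 0.00442), and without wild type 1028 and 1528, the libraries farthest from the median of Ciita, r was 0.947. Ciita and Cd74 had r = 0.887 and rho = 0.782 (permutation p = 0.00161, adjusted 0.0023; for rho 0.0105, adjusted 0.0176), with r = 0.954 without the same libraries. In both pairs r thus stayed high without the extreme libraries, and the cause of the relation was not tested.

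Nlrc5 and H2-K1 had r = 0.874 and rho = 0.758 (permutation p = 0.00143, adjusted 0.0023; for rho 0.0147, adjusted 0.0184), with r = 0.625 without wild type 1528 and 1561. Nlrc5 and B2m had r = 0.768 and rho = 0.758 (permutation p = 0.0093, adjusted 0.0103; for rho 0.0147, adjusted 0.0184), with r = 0.65 without these libraries. Tap1 and Psmb9, read from the shared promoter, had r = 0.926 and rho = 0.915 (permutation p = 0.0003, adjusted 0.001; for rho 0.00043, adjusted 0.00245), and r = 0.727 without wild type 1028 and 1528. H2-K1 and H2-D1 had r = 0.979 and rho = 0.867 (adjusted permutation p = 0.00015 and 0.00442), and r = 0.933 without wild type 1528 and 1561. Tap1 and Psmb8 had r = 0.983 and rho = 0.903 (adjusted permutation p = 0.00015 and 0.00297), and H2-Aa and H2-Ab1 r = 0.901 and rho = 0.915 (adjusted permutation p = 0.00164 and 0.00245), with r = 0.931 and 0.775 without wild type 1028 and 1528.

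The pairs that cross the classes had the lowest rho of the 10. H2-K1 and H2-Aa had r = 0.794 and rho = 0.60 (permutation p = 0.0056, adjusted 0.007; for rho 0.0733, adjusted 0.0814), and B2m and Cd74 had r = 0.681 and rho = 0.515 (permutation p = 0.0289, adjusted 0.0289; for rho 0.133, adjusted 0.133). Without the 2 farthest libraries r was 0.51 and 0.127, so the second relation rests on wild type 1028 and 1561. Within the 7 libraries numbered below 1100, 6 of the 10 pairs passed after adjustment of the permutation p. Those that did not were the pairs of Nlrc5 with H2-K1 (r = 0.694, adjusted p = 0.116) and B2m (r = 0.676, adjusted p = 0.116), and the pairs H2-K1 with H2-Aa (r = 0.69, adjusted p = 0.133) and B2m with Cd74 (r = 0.533, adjusted p = 0.212). The 3 libraries of the other series are too few for a value of their own.

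Genes around the members showed the same absence of calls, with 0 members called by edgeR in each of 6 pathway lists. Loading and proteasome partners had 7 of 14 tested genes above 0 and 7 below, class II loading and lysosomal proteases 6 and 5, and transcription factors of MHC genes 8 and 8. The interferon gamma axis had 8 above and 11 below 0, MHC-like genes outside the H2 names 3 and 5, and costimulatory and inhibitory ligands 3 and 5. Of the tested genes in these lists, Cd274 and Mill1 had an unadjusted edgeR p under 0.05, where 7.16% of all genes did. Mill1, of the MHC-like list, had a log2 fold change of −0.90 (edgeR unadjusted p = 0.0461, adjusted p = 0.692). Cd274, which encodes the T cell inhibitor PD-L1, lay in the interferon gamma and costimulatory lists. It stood at 27.4, 43.9, 19.6, 39.3 and 25.9 CPM in the knockout libraries and 22.5, 16.2, 4.48, 19.2 and 5.88 CPM in wild type. The level was 31.2 ± 10.1 against 13.6 ± 8.04 CPM (SD, n = 5 each), with a log2 fold change of 1.20 and an SE of 0.43 (edgeR unadjusted p = 0.0171, adjusted p = 0.562), and Grhl3 KO 1035 was the one knockout library below wild type 1028.

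Wild type 1028 also stood high in marker lists of several cell types, immune and not. The sum of 14 epithelial markers was 113700 CPM there and 47340 to 71760 CPM in the other 9 libraries. Krt13 alone gave 43060 CPM of the sum in wild type 1028. Not every epithelial marker followed, and Epcam, chosen after its values were seen, was lowest in that library at 72.95 CPM. The sum of 10 endothelial markers was 180.6 CPM in wild type 1028 against 70.9 to 139.7 CPM. The neutrophil and mast cell list was high in wild type 1028 (23310 CPM) and 1555 (21930 CPM), against 3127 to 11210 CPM in the other 8. Nearly all of this sum was S100a8 and S100a9, at 9263 and 14030 CPM in wild type 1028. Other markers of that list did not all follow, and Csf3r, chosen after its values were seen, was lowest in wild type 1028 at 3.58 CPM. T and NK cell markers summed to 36.5 to 55.2 CPM in the knockout libraries, to 99.8 CPM in wild type 1028 and to 22.9 to 54.7 CPM in the other wild-type libraries. Summed over 14 dendritic and Langerhans cell markers, most of it Cst3, the level was 258.8 to 413.1 CPM in the knockout libraries and 207.1 to 519.7 CPM in wild type, highest in wild type 1028. B cell and plasma cell markers summed to 3.11 to 8.55 CPM and 1.69 to 15.7 CPM, again highest in wild type 1028, and general leukocyte markers to 152 to 225.9 and 103.8 to 291.2 CPM. Macrophage markers did not set that library as far apart, at 193 to 287.5 CPM in the knockout libraries and 192 to 265.9 CPM in wild type. Markers of fibroblasts and muscle were not highest there. Fibroblast markers summed to 521.6 CPM in wild type 1028 and 712.5 CPM in Grhl3 KO 1035. Skeletal muscle markers came to 1532 CPM in wild type 1028 and 5565 CPM in Grhl3 KO 1043. Smooth muscle markers came to 634.6 CPM in wild type 1028 and 1076 CPM in Grhl3 KO 1026. No marker of these lists was at 0 in all libraries.

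Several genes of the interferon gamma axis were highest in the same library, though others, such as Cd274, were not. Gbp2, an interferon-induced GTPase, stood at 65.3 CPM in wild type 1028 and at 10.08 to 23.01 CPM in Grhl3 KO, and Cxcl9, a chemokine that draws T cells and was chosen after its values were seen, at 35.0 CPM against 2.76 to 6.47 CPM. The summed level of the interferon gamma axis was 801.2 CPM in wild type 1028, 450.7 CPM in wild type 1528 and 557.1 to 702.6 CPM in Grhl3 KO. The part of these cells, epithelium included, and of interferon gamma in the levels of the MHC genes was not tested. In bulk tissue, fewer cells of a type and less RNA per cell cannot be told apart. With the mean log2 CPM of the general leukocyte markers as a term in the fit, edgeR also called 0 members. That fit called 2 of 13731 genes in all, so the 0 says little about the members.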

How the data were processed

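RNA was extracted with a column kit and made into stranded poly(A) libraries, per the labels' protocols. The authors deposited 1 table of raw counts for protein-coding genes, made with featureCounts on GRCm38 per the submitters' processing notes. The aligner is not stated. A count is a whole number of reads per gene and library, and strand was used in counting, per the labels.

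From the counts, CPM were computed with TMM factors, and Grhl3 KO was compared with wild type over the whole table with edgeR 4.0.16 (filterByExpr with a minimum count of 10 and a total of 15, robust quasi-likelihood F test, Benjamini-Hochberg over 13731 genes, threshold 0.05). R 4.3.3, limma 3.58.1 and DESeq2 1.42.0 were used for alternatives. Fold changes are log2. The fits were tested on simulated data. The p-values measure the spread between the samples as labelled. The precision of a level is set by the spread between libraries, which held 15315418 to 32884323 counts.

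The members, gene lists and 10 pairs were chosen with earlier results of these data known, and every member past the filter may be named. Of the lists around them, up to 4 genes of smallest p per pathway list and the 2 most abundant per cell type list may be named, and a gene named outside this is marked. No samples were left out. Pair correlations used 100000 permutations of log2 CPM with a prior count of 2. Exon lengths and near-identical stretches (blastn 2.17.0, at least 75 bases at 95% identity) came from the GRCm38 annotation and its transcripts. H2-Ea, H2-L and H2-T10 were not analysed here. Alternatives were other scalings, filters and tools, leaving out each library, the number series and the leukocyte level.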

Additional observations from a re-analysis of the deposited data

Results flagged for a closer look

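In 62 groups of 5 libraries, 1 per tested member and genotype, 5 had a library whose gap to its nearest neighbour was large against the group's range by Dixon's test, and chance gives about 1 in 20. Wild type 1028 stood apart in H2-Ab1, at 215.1 CPM against 91.39 to 119.3 CPM in the other wild-type libraries. It also stood apart in H2-Ob, a B cell and dendritic cell chain, at 2.688 CPM against 0.5177 to 0.8623 CPM. Wild type 1528 was high in H2-Q10, a secreted class I molecule known from liver, at 4.746 CPM against 1.224 to 2.169 CPM, though it was the lowest library for most other members. Grhl3 KO 1027 was high in H2-T22, at 86.87 CPM against 57.77 to 64.79 CPM, a gene near-identical to H2-T10 over its whole transcript. Grhl3 KO 1036 was low in Cd74, at 113.8 CPM against 146.7 to 156.8 CPM.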

How the results depend on the processing

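No paired analysis was possible because the genotypes share no sample numbers. No member was called under any of 21 alternatives, whose smallest adjusted p for a member ran from 0.475 to 0.892. Calls over all genes were 11, and became 119 with DESeq2, 1 with limma voom, 7 without the filter, 1 without wild type 1528 and 1555, 1 within the lower number series, 1 with the series as a term and 2 with the leukocyte level as a term; leaving out single libraries gave 1 to 16. Of the 10 pairs, 6 passed within the lower series. Leaving out single libraries, the class II median ran from −0.33 without wild type 1561 to 0.33 without wild type 1028; it was −0.56 within the lower series and −0.57 with the series term. Of 31 members, 18 turned sign without wild type 1028, 10 with limma voom, 10 within the lower series and 10 with the series term. Among the 13 members whose fold changes the text gives, H2-Aa became 0.0356 with library totals, 0.18 with voom and 0.0362 with the leukocyte term. B2m became 0.0785 and Tap1 0.0609 with voom. Without wild type 1528 and 1555, within the lower series and with the series term, H2-K1 became −0.0685, −0.36 and −0.36, H2-T23 −0.078, −0.30 and −0.30, Cd74 −0.16, −0.47 and −0.47, Nlrc5 −0.10, −0.38 and −0.38, and Ciita −0.0555, −0.32 and −0.32. H2-D1 became −0.20 in both of the last, and H2-T23 −0.0234 with the leukocyte term. Leaving out single libraries gave H2-Ab1 −0.29 to 0.0858, H2-Aa −0.18 to 0.45, H2-T23 −0.0664 to 0.21, B2m −0.22 to 0.27, Cd74 −0.13 to 0.45, Nlrc5 −0.0592 to 0.32, Tap1 −0.23 to 0.25, Psmb9 −0.46 to 0.22 and Ciita −0.0579 to 0.59. The cause of these turns was not tested. Members under about 1 CPM rest on few counts.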
